A study of Mus musculus with 21 samples.

Results

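The genes described here belong to the peroxisomal route of fatty acid oxidation in the mouse left ventricle. There were 8 of them among the 55450 genes of the count table, taken as the rows whose Ensembl identifiers carry the symbols Abcd2, Abcd3, Ehhadh, Hsd17b4, Acaa1a, Acot8, Crot and Pex11a. Polyadenylated RNA was sequenced from the left ventricle of 21 male 129S6/SvEv mice in 4 groups. Wild-type mice on a control diet (WT-CD, n = 5) and heterozygous R403Q mice on a control diet (R403Q-CD, n = 7) were set beside wild-type mice (WT-EMPA, n = 5) and R403Q mice (R403Q-EMPA, n = 4) fed the same kind of diet with 0.15 mg of empagliflozin (EMPA) per g. EMPA inhibits the sodium-glucose cotransporter SGLT2, a transporter of the kidney. R403Q is a missense mutation of the alpha-myosin heavy chain (Myh6) that causes hypertrophic cardiomyopathy, and the labels write the genotype as Myh6+/R404Q. A change of a single residue cannot be checked from gene counts. The mice were about 12 weeks old, and the diets were started at 9 to 10 weeks of age. The study's methods give 2 weeks of EMPA before tissue was taken. The sample labels give 16 weeks of treatment, which is not possible between these ages. Mice on the control diet came from 4 cages and mice on EMPA from 3 others, so that diet and cage cannot be told apart. Since whole tissue was sequenced, fewer cardiomyocytes and less RNA per cardiomyocyte also cannot be told apart.

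Peroxisomes shorten fatty acids that mitochondria handle poorly, such as very long-chain, branched and dicarboxylic species. The acyl-CoA enters through transporters of the ABCD family, is oxidised with the production of hydrogen peroxide, is hydrated and dehydrogenated by a bifunctional protein and is cleaved by a thiolase. The shortened products leave as carnitine esters or free acids, for further oxidation in mitochondria. In liver many of these genes are classical targets of the nuclear receptor PPAR alpha, whereas the heart draws most of its energy from mitochondrial oxidation. On GRCm38 the GENCODE annotation places Ehhadh at chr16:21761287-21787807, Pex11a at chr7:79735957-79743131, Abcd3 at chr3:121758774-121815302, Abcd2 at chr15:91145871-91191799, Acaa1a at chr9:119339676-119350299, Acot8 at chr2:164792765-164804882 and Crot at chr5:8966033-8997324. The 8 genes cover import (Abcd2 and Abcd3), the core reactions (the L-bifunctional protein Ehhadh, the D-bifunctional protein Hsd17b4 and the thiolase Acaa1a), release of products (Acot8, an acyl-CoA thioesterase; Crot, carnitine octanoyltransferase) and the growth and division of the organelle (Pex11a, a peroxin of the membrane).

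Upstream sequence was available for 6 of the 8 members. The 250 bases before the annotated start are shown for 3 of them, chosen after their values were seen: Ehhadh and Pex11a, which had the largest positive differences with EMPA, and Acaa1a, an enzyme of the same pathway whose level with EMPA was, if anything, lower. The sequences are from RefSeq on GRCm38.p6, read 5′ to 3′ along the gene, and capitals mark GGGCGG (the core of a GC box) or CCAAT on either strand. Windows end at the start RefSeq gives, which for Acaa1a lies inside the GENCODE gene, so that this window overlaps it, and for Ehhadh lies 5′ of the GENCODE gene.
Ehhadh, chr16:21787835-21788084, minus strand: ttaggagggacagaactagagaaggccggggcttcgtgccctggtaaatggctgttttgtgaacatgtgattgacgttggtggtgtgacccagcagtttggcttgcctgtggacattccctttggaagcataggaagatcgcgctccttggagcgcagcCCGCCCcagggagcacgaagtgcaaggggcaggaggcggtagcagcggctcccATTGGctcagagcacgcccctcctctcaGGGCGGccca
Pex11a, chr7:79743132-79743381, minus strand: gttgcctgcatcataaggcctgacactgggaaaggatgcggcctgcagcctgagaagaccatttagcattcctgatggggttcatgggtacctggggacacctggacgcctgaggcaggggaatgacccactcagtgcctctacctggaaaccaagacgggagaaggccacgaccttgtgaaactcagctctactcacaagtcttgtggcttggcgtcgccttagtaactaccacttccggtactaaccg
Acaa1a, chr9:119341044-119341293, plus strand: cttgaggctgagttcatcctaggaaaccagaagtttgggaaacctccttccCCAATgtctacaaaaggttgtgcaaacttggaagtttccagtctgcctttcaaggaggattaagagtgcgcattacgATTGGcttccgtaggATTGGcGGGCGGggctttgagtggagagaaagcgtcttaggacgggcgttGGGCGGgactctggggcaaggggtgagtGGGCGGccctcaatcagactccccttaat
The Ehhadh window held GGGCGG 2 times and CCAAT once, the Acaa1a window held each of them 3 times, and the Pex11a window held neither. Over all 32851 upstream windows of this length, 32.7% held GGGCGG and 33.8% held CCAAT. The letters AGGTCA, the core to which nuclear receptors such as PPAR alpha bind, was searched on both strands and is in 14.0% of all windows, and a direct repeat of it with 1 base between the copies, which contains it, is in 0.0335%. Neither set of letters was in any of the 7 windows of the 6 members, which says nothing about binding of the receptor, here or elsewhere in these genes.

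Libraries held between 23491535 and 43539684 counts, and 17309 genes passed the filter on low counts. All 8 members passed it, with the lowest count of any member in any mouse at 161 (Acot8), so every member was far above the limit of 3 counts that a count of 0 would allow. Cardiomyocyte markers were abundant in every mouse, with a summed level of 62300 to 109000 CPM (counts scaled to the size of the library) over 8 genes. R403Q-CD replicate 2 stood apart from the rest: its median correlation with the other mice was 0.961, against 0.980 or more in the others, it had the lowest sum of cardiomyocyte markers and the highest levels of Nppa (11000 CPM), Myl7 (180 CPM) and Myl4 (339 CPM), genes that mark atrial myocytes and of which Nppa is also induced in strained ventricle. It was also the highest of all 21 mice for 5 of the 6 fibroblast markers (Col1a1, Col1a2, Col3a1, Dcn and Postn). The same mouse was the lowest for Ehhadh, Pex11a, Hsd17b4, Abcd3 and Acaa1a and the highest for Acot8 (7.2 CPM). The larger differences of the members are given with and without it. Medians of the other gene lists and marker lists are given only with it.

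The members differed widely in level. To compare genes, CPM were divided by the length of the exons (RPKM). Hsd17b4 had the highest level at 36.3 ± 4.62 RPKM (SD, n = 21), followed by Abcd3 at 20.6 ± 2.68 and Acaa1a at 14.6 ± 1.02. These 3 genes lay above 82% or more of the genes tested. Crot (9.17 ± 0.658 RPKM), Pex11a (6.66 ± 1.17) and Ehhadh (6.61 ± 1.77) came next, and Acot8 (3.17 ± 0.265) and Abcd2 (1.43 ± 0.19) were lowest. Abcd3, which carries branched and dicarboxylic acyl-CoA, thus had a far higher level than Abcd2, which carries very long-chain acyl-CoA. The order held in all 21 mice for every pair of neighbours except Ehhadh over Acot8 (20 of 21 mice) and Pex11a over Ehhadh (11 of 21), and the latter neighbours could not be separated.

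**Figure D1:**
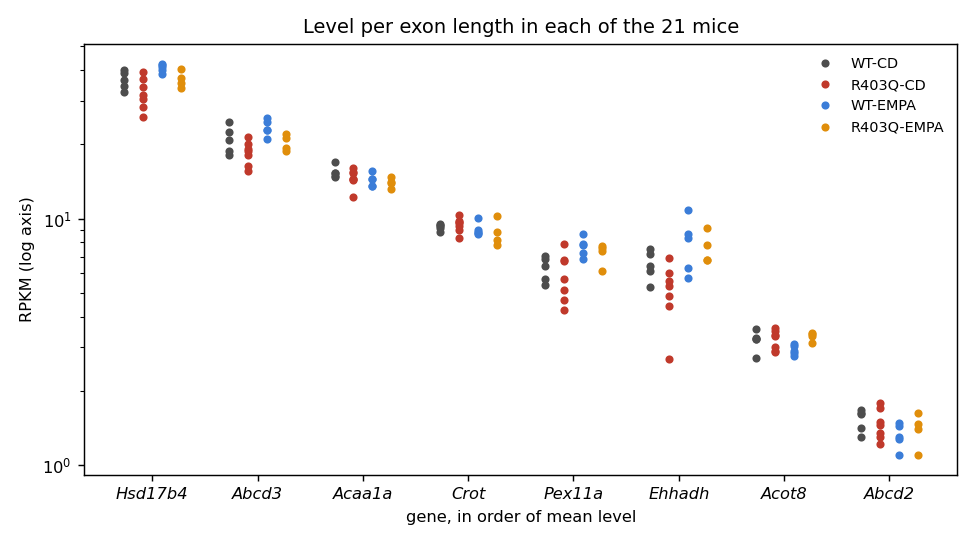
Level per exon length of each member, in RPKM on a log axis. Each point is a mouse, coloured by group, and genes are in order of their mean over 21 mice. From Hsd17b4 (36.3 RPKM) to Abcd2 (1.43 RPKM) the groups compared overlap within each gene, except that Acot8 in R403Q-EMPA lies above WT-EMPA, and the single low Ehhadh point of R403Q-CD (2.7 RPKM) is replicate 2.

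The bifunctional proteins carry out the same pair of reactions on different substrates and differed in how steady they were. Ehhadh had the wider spread in every group, with an SD of 13.8% of the mean CPM in WT-CD, 26.2% in R403Q-CD, 25.5% in WT-EMPA and 14.4% in R403Q-EMPA, whereas for Hsd17b4 the corresponding values were 8.44%, 14.6%, 4.25% and 8%. Without R403Q-CD replicate 2 the SD in R403Q-CD was 16.2% of the mean for Ehhadh and 12.3% for Hsd17b4. The ratio of Ehhadh to Hsd17b4 in RPKM had a mean and SD of 0.178 ± 0.0194 in WT-CD, 0.157 ± 0.0347 in R403Q-CD, 0.195 ± 0.047 in WT-EMPA and 0.209 ± 0.0418 in R403Q-EMPA, over 5, 7, 5 and 4 mice. Hsd17b4 was the major form in every mouse, and the ranges of the ratio overlapped between all groups.

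**Figure D2:**
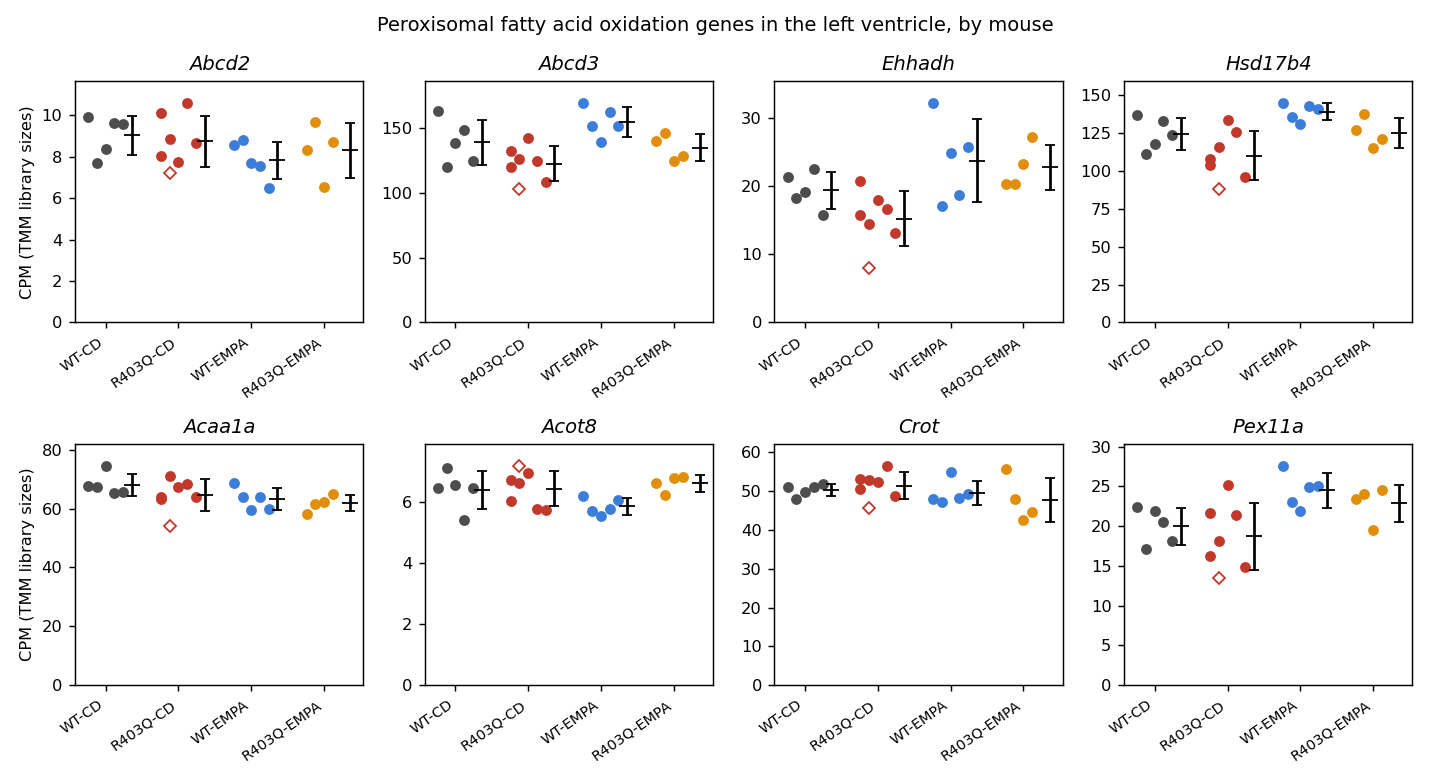
CPM of the 8 members in each mouse, with the y axis starting at 0. Points are mice in the 4 groups, the open diamond is R403Q-CD replicate 2, and the black bars are the mean ± SD. Ehhadh, Pex11a, Hsd17b4 and Abcd3 have their lowest group mean in R403Q-CD and their highest in WT-EMPA, and Acaa1a and Abcd2 have their highest mean in WT-CD.

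R403Q-CD was first compared with WT-CD, the effect of the mutation without drug. No member passed the threshold, and the lowest values relative to WT-CD were those of Ehhadh, Abcd3 and Hsd17b4. By edgeR's quasi-likelihood test with Benjamini-Hochberg adjustment over all genes tested, 0 of 8 members had an adjusted p under 0.05, beside 1.44% of all genes. DESeq2 and limma also called 0 of 8. At an unadjusted p under 0.05 there were 2 of 8 members, both lower in R403Q-CD, beside 9.15% of all genes that were lower at this level. In either direction the count was 0 with only the 2 groups, without WT-EMPA or with library size alone, and 3 with limma on the deposited values. The fitted difference was below 0 for 6 of 8 members, against 47.5% of all genes, with a median of -0.09 on the log2 scale (all genes 0.01). The members' median was -0.04 without R403Q-CD replicate 2 and -0.13 without R403Q-CD replicate 3.

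Abcd3 had 163, 120, 138, 148 and 124 CPM in the 5 WT-CD mice and from 103 through a median of 124 to 142 CPM in the 7 R403Q-CD mice. Only 2 R403Q-CD mice had a level under the lowest WT-CD mouse. The fitted log2 difference was -0.18 (SE 0.08, 95% confidence interval -0.36 to -0.01, edgeR adjusted p = 0.222). Hsd17b4 had 137, 111, 118, 133 and 124 CPM in WT-CD and 87.9, 108 and 134 CPM as the lowest, median and highest of R403Q-CD. Here 4 of 7 R403Q-CD mice were under the whole WT-CD range, and the log2 difference was -0.18 (SE 0.08, edgeR adjusted p = 0.23). Ehhadh, whose product is the inducible bifunctional protein in liver, had 21.4, 18.2, 19.2, 22.5 and 15.7 CPM in WT-CD and 8.05, 15.8 and 20.7 CPM as the lowest, median and highest of R403Q-CD. In 6 of the 7 R403Q-CD mice its level was under the WT-CD median. Its log2 difference was the largest of the 8 at -0.35, but with an SE of 0.18 (95% confidence interval -0.72 to 0.02, edgeR adjusted p = 0.259).

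The remaining members differed less. Pex11a differed by -0.10 on the log2 scale (SE 0.12), Acaa1a by -0.07 (SE 0.06) and Abcd2 by -0.05 (SE 0.11), with edgeR adjusted p-values of 0.49 to 0.834. Those that release the products lay closest to 0, with Crot at 0.03 (95% confidence interval -0.10 to 0.16) and Acot8 at 0.01 (-0.16 to 0.17), so for these genes a difference beyond about 1.13-fold either way lay outside the interval. Without R403Q-CD replicate 2, the log2 differences were -0.24 for Ehhadh, -0.15 for Abcd3, -0.14 for Hsd17b4 and -0.04 for Pex11a, and 0 of 8 members were under an unadjusted p of 0.05. With cage as a block, which uses R403Q-CD and WT-CD mice housed together, they were -0.44, -0.20, -0.24 and -0.14, and the lowest adjusted p among the members was 0.0996 (Hsd17b4).

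**Figure D3:**
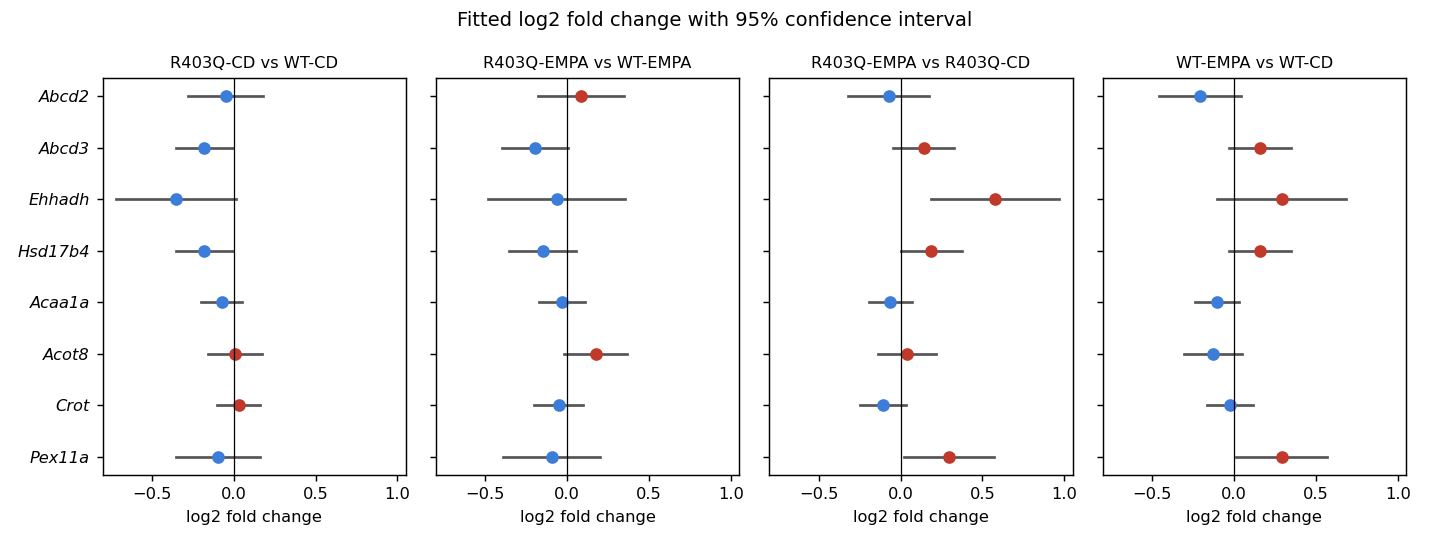
Fitted log2 fold change of each member (x axis) in the comparisons between groups, with red points above 0, blue points below 0 and bars for the 95% confidence interval. With the mutation Ehhadh, Hsd17b4 and Abcd3 sit below 0 on the control diet (-0.35, -0.18 and -0.18), and with EMPA they sit above 0 in both genotypes together with Pex11a, while Crot and Acaa1a sit at or below 0.

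The effect of EMPA in the mutant was read from R403Q-EMPA against R403Q-CD. Ehhadh, Pex11a and Hsd17b4 had higher levels with EMPA, by 1.49-fold, 1.23-fold and 1.14-fold, but 0 of 8 members had an edgeR adjusted p under 0.05, beside 0.0116% of all genes (2 genes). DESeq2 and limma called 0 of 8 as well. At an unadjusted p under 0.05 there were 3 of 8 members, all higher, beside 7.06% of all genes that were higher at this level. In either direction the count was 1 with only the 2 groups or without WT-EMPA, 2 with DESeq2 and 4 with library size alone. It was also 1 without R403Q-CD replicate 5 or 6 or R403Q-EMPA replicate 2 or 4. The median log2 difference of the members was 0.09 (all genes -0.0036) and 0.05 without R403Q-CD replicate 5, with 5 of 8 above 0 beside 49.2% of all genes.

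Ehhadh reached 20.3, 20.3, 23.2 and 27.2 CPM in the 4 R403Q-EMPA mice. All of them lay above the R403Q-CD median of 15.8 CPM, and 2 lay above the highest R403Q-CD mouse. The log2 difference was 0.58 (SE 0.19, 95% confidence interval 0.19 to 0.97, edgeR unadjusted p = 0.00561, adjusted p = 0.213), which ranked at place 452 of 17309 genes by p. Pex11a, which promotes elongation of peroxisomes before they divide, had 23.4, 24.1, 19.5 and 24.6 CPM with EMPA against 13.5, 18.1 and 25.2 CPM as the lowest, median and highest of R403Q-CD. Its 4 EMPA mice lay above the R403Q-CD median and below its highest mouse, with a log2 difference of 0.29 (SE 0.13, edgeR adjusted p = 0.338). Hsd17b4 had 127, 138, 115 and 121 CPM with EMPA, a log2 difference of 0.19 (SE 0.09, edgeR adjusted p = 0.372).

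The other members had differences nearer to 0 or below it. Abcd3 differed by 0.14 on the log2 scale (SE 0.09), Acot8 by 0.04 (SE 0.09), Acaa1a by -0.06 (SE 0.06), Abcd2 by -0.07 (SE 0.12) and Crot by -0.11 (SE 0.07), with edgeR adjusted p-values of 0.502 to 0.888. The thiolase and the octanoyltransferase thus had point estimates on the opposite side of 0 from the bifunctional proteins. Without R403Q-CD replicate 2, the log2 difference of Ehhadh was 0.46 (unadjusted p = 0.00677, adjusted p = 0.245 by edgeR), that of Pex11a 0.22 and that of Hsd17b4 0.14. Crot then stood at -0.14 with an unadjusted p of 0.0424 by edgeR, so that 2 of 8 members were under 0.05.

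In wild-type mice the same diet was compared with the control diet (WT-EMPA against WT-CD). Pex11a and Ehhadh had the largest positive differences, each 1.22-fold, and Abcd2 had the largest negative one. By edgeR 0 of 8 members had an adjusted p under 0.05, beside 0.0289% of all genes (5 genes), and DESeq2 and limma called 0 of 8. At an unadjusted p under 0.05 there was 1 of 8 members, Pex11a, beside 5.94% of all genes that were higher at this level. The median over the members was 0.07 on the log2 scale and 0.03 without WT-CD replicate 2, with 4 of 8 above 0 beside 49.1% of all genes.

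Pex11a had 27.6, 23, 21.9, 24.9 and 25 CPM in WT-EMPA against 22.4, 17.1, 21.9, 20.5 and 18.1 CPM in WT-CD. Of the WT-EMPA mice, 4 lay above all WT-CD mice, and the log2 difference was 0.29 (SE 0.13, 95% confidence interval 0.01 to 0.57, edgeR adjusted p = 0.43). Ehhadh had 32.2, 17.1, 24.9, 18.7 and 25.8 CPM in WT-EMPA. Its values spread most within this group, 3 mice lying above all WT-CD mice and the other two among them, and the log2 difference was 0.29 (SE 0.19, edgeR adjusted p = 0.598). Hsd17b4 had 145, 136, 131, 143 and 141 CPM in WT-EMPA and Abcd3 had 169, 151, 139, 162 and 151 CPM. All 5 WT-EMPA mice exceeded the WT-CD median for each of these genes, with log2 differences of 0.16 (SE 0.09) for both and edgeR adjusted p-values of 0.54.

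Members below 0 with EMPA in wild-type mice were Abcd2 at -0.21 (SE 0.12), Acot8 at -0.13 (SE 0.09), Acaa1a at -0.11 (SE 0.06) and Crot at -0.02 (SE 0.07) on the log2 scale, with edgeR adjusted p-values of 0.54 to 0.933. For Acaa1a 4 of 5 WT-EMPA mice (59.6 to 68.7 CPM in all) lay below every WT-CD mouse (65.2 to 74.6 CPM). For Abcd2 this held for 3 of 5 mice (6.51 to 8.79 CPM, against 7.71 to 9.91 CPM in WT-CD). The study's methods say that proper pairs on the same strand were counted, and do not say whether the library kit marks strand, so whether overlapping genes on opposite strands were separated was not settled from the sources. On the annotation, 6.57% of the exon length of Acaa1a overlaps Myd88 and 12.3% of that of Acot8 overlaps Snx21. The near copy Acaa1b had at most 8 counts in any mouse and was not tested, whereas Acaa1a had at least 1533 counts.

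Whether EMPA acted differently in the genotypes was tested by the interaction, the diet difference in R403Q mice minus that in wild-type mice. No gene passed by edgeR (0 of 17309, or 0%, with 567 genes under an unadjusted p of 0.05, or 3.28%) or by DESeq2, and 0 of 8 members were under an unadjusted p of 0.05. For Ehhadh the difference of the differences was 0.29 on the log2 scale, with a 95% confidence interval from -0.27 to 0.84 that spans a wide range in both directions. Without R403Q-CD replicate 2 it was 0.17. Pex11a was at 0.00193 (-0.39 to 0.39), and the edgeR adjusted p-values of the 8 members were 0.999 to 1. The larger Ehhadh difference in the mutant is thus not shown to differ from that in wild-type mice. These comparisons share the R403Q-CD and WT-CD mice with the comparison of genotypes above.

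Genotypes were also compared within the EMPA diet (R403Q-EMPA against WT-EMPA). By edgeR 0 of 8 members had an adjusted p under 0.05, beside 0.0578% of all genes (10 genes), and 0 of 8 were under an unadjusted p of 0.05, beside 14.7% of all genes. DESeq2 and limma called 0 of 8, and each had 1 member under an unadjusted p of 0.05. Acot8 was the single member whose ranges did not overlap in any of the comparisons between groups. It had 6.64, 6.23, 6.78 and 6.83 CPM in R403Q-EMPA, all above the 6.2, 5.71, 5.54, 5.78 and 6.09 CPM of WT-EMPA, and 3.35% of all genes were separated in this direction. The gap between the groups was small, and the log2 difference was 0.17 (SE 0.09, edgeR adjusted p = 0.384). Abcd3 was lower in R403Q-EMPA at 140, 146, 124 and 128 CPM, with a log2 difference of -0.20 (SE 0.10, edgeR adjusted p = 0.345). Ehhadh was close to equal at -0.06 on the log2 scale, although the 95% confidence interval of -0.48 to 0.36 is wide. By the interaction above, this is not shown to differ from the control diet.

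Averages over the other factor were added after the data were seen, from the same fit. Averaged over genotypes, EMPA mice had higher levels of Ehhadh by 0.43 on the log2 scale (SE 0.13, 1.35-fold, edgeR adjusted p = 0.0767), of Pex11a by 0.29 (SE 0.09, 1.22-fold, adjusted p = 0.0882), of Hsd17b4 by 0.17 (SE 0.06, adjusted p = 0.134) and of Abcd3 by 0.15 (SE 0.06, adjusted p = 0.194). None passed: 0 of 8 had an adjusted p under 0.05 by edgeR, beside 2.91% of all genes, and 4 of 8 were under an unadjusted p of 0.05, all higher, beside 10.7% of all genes. DESeq2 called 1 of 8, Ehhadh, with an adjusted p of 0.0351. In edgeR Ehhadh had an adjusted p of 0.0448 without R403Q-CD replicate 1, and Pex11a of 0.0269 without R403Q-CD replicate 3, so their place relative to the threshold depended on single mice. Without R403Q-CD replicate 2 the log2 differences were 0.38 for Ehhadh (adjusted p = 0.0507) and 0.26 for Pex11a (adjusted p = 0.0855). The remaining 4 members were at -0.05 to -0.14 with adjusted p-values of 0.306 to 0.72.

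Averaged over diets, R403Q mice had lower levels of Abcd3, at -0.19 on the log2 scale (SE 0.06, 95% confidence interval -0.32 to -0.06, edgeR adjusted p = 0.0584) and of Hsd17b4, at -0.17 (SE 0.06, adjusted p = 0.0965). Again 0 of 8 members passed, beside 10.9% of all genes, and 2 of 8 were under an unadjusted p of 0.05, both lower, beside 13% of all genes lower at this level. DESeq2 called 1 of 8, Abcd3, with an adjusted p of 0.0311, and limma with cage as a random effect called the same gene at 0.0468. In edgeR Abcd3 passed without WT-CD replicate 2 (adjusted p = 0.0421), WT-CD replicate 5 (0.046), WT-EMPA replicate 3 (0.0426) or R403Q-CD replicate 3 (0.0272), and Hsd17b4 passed without R403Q-CD replicate 3 (0.0346). The difference of Ehhadh was -0.21 (SE 0.13), and Acaa1a, Crot, Abcd2, Acot8 and Pex11a lay between -0.10 and 0.09. Without R403Q-CD replicate 2, Abcd3 was at -0.18 (adjusted p = 0.0572) and Hsd17b4 at -0.15 (adjusted p = 0.0906). Scaled to library size alone, Crot stood at 0.05 instead of -0.01.

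The members were also compared by how they varied from mouse to mouse. Over the 21 mice the log2 CPM of Abcd3 and Hsd17b4 had a Pearson's r of 0.913 (Spearman's rho 0.919), Hsd17b4 and Pex11a of 0.88 (0.848), and Abcd3 and Pex11a of 0.866 (0.832). Ehhadh joined them with 0.794 to Pex11a (rho 0.642), 0.706 to Hsd17b4 (0.514) and 0.699 to Abcd3 (0.599). These 4 genes were also those above 0 with EMPA when averaged over genotypes. Acaa1a, Crot and Abcd2 had r between -0.0165 and 0.242 with them, and Acot8 had r between -0.401 and -0.269. With the group means removed the 6 pairs of the first set had r from 0.5 to 0.856. The distance to the other members was then smaller, since with these 4 genes Acaa1a had r from 0.432 to 0.583, Crot from 0.297 to 0.525 and Abcd2 from 0.264 to 0.488, whereas Acot8 stayed at -0.253 to -0.135. Without the 2 mice farthest from the median of the members, R403Q-CD replicates 2 and 5, the 6 pairs had r from 0.403 to 0.856. The values are descriptions, since the mice share groups, cages and library effects, and no test was made.

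**Figure D4:**
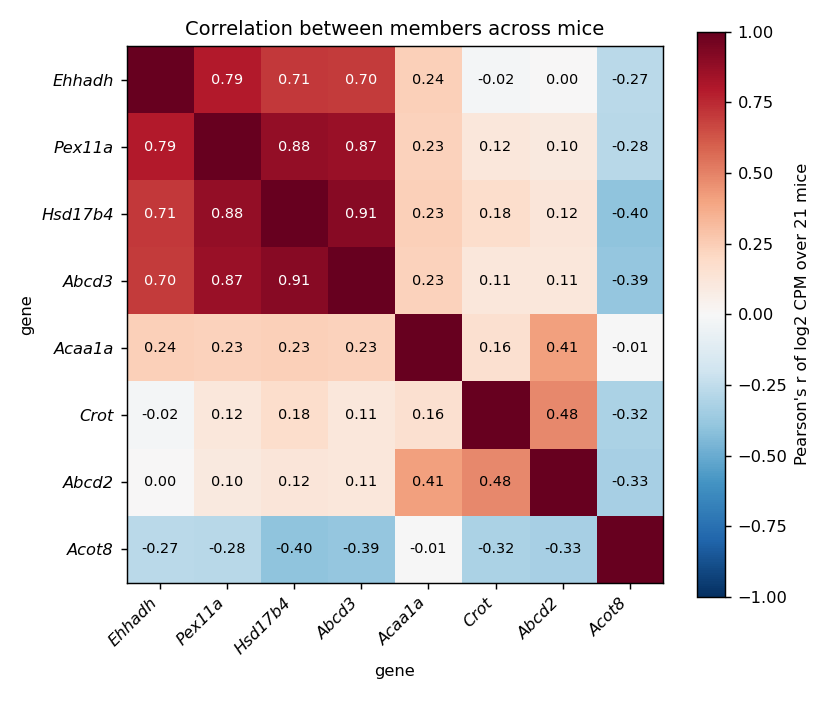
Pearson's r of log2 CPM between the members over 21 mice, with genes on both axes and the colour from blue (-1) through white (0) to dark red (1). Ehhadh, Pex11a, Hsd17b4 and Abcd3 form a red block with r of 0.699 or more, the pale cells to Acaa1a, Crot and Abcd2 lie near 0, and Acot8 is blue to most others.

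The genes whose pattern over the 21 mice was most like the mean z score of the 8 members were named by rule, from 14094 genes with a symbol and a mean of at least 1 CPM. They were Hars2, Hrc, Asrgl1, Grsf1, Fdft1, Grb14, Mfn1, Gfm2, Hspa9 and Dlat, with Pearson's r from 0.881 to 0.915 and Spearman's rho from 0.622 to 0.768. Hrc binds calcium in the sarcoplasmic reticulum, Mfn1 fuses mitochondria, Hspa9 is a mitochondrial chaperone and Dlat is a subunit of pyruvate dehydrogenase. Without R403Q-CD replicates 2 and 5 the r of these genes was 0.629 to 0.742. The mean z score of the members was 0.196 ± 0.354 (SD) in WT-CD, -0.301 ± 0.762 in R403Q-CD, 0.197 ± 0.352 in WT-EMPA and 0.0347 ± 0.402 in R403Q-EMPA. R403Q-CD replicate 2 had the lowest score at -1.63, and without it the mean of R403Q-CD was -0.0799 ± 0.536 (n = 6).

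Other genes of peroxisomal oxidation were counted from a list of 26, of which 20 could be tested. None had an edgeR adjusted p under 0.05 in a comparison of 2 groups. With EMPA 5 of 20 were higher at an unadjusted p under 0.05 in R403Q mice, beside 7.06% of all genes. In wild-type mice 5 of 20 were higher, beside 5.94% of all genes (medians 0.08 in each on the log2 scale). In each genotype 1 of 20 was lower at that p. DESeq2 called 0 of 20 with EMPA in R403Q mice and 1 of 20 in wild-type mice.

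In the averages added after the data were seen, 3 of these 20 genes had an edgeR adjusted p under 0.05 with EMPA, beside 2.91% of all genes, against 2 with cage as a random effect and 1 without R403Q-EMPA replicate 3 or 4. Among the 3, Acot4, a thioesterase, rose by 0.68 on the log2 scale (adjusted p = 0.0272) and Mlycd, which breaks down malonyl-CoA, by 0.46 (adjusted p = 0.0239, or 0.0632 with cage as a random effect). A further list held 13 tested genes, put down as matrix and membrane genes of the organelle without a check of where each product lies. Ephx2, an epoxide hydrolase of peroxisomes and cytosol, was the only one of them called with EMPA, at 0.31 (adjusted p = 0.0211). With cage as a random effect 0 of 13 were called (Ephx2 at 0.0556). In R403Q mice 2 of the 20 oxidation genes and 3 of the 13 on the further list were called, all lower, beside 10.9% of all genes called. Among them Phyh, which starts the alpha-oxidation of phytanic acid, was at -0.23 (adjusted p = 0.0495). Ephx2 was at -0.25 (0.0277), Pxmp2 at -0.51 (0.0195) and Mpv17 at -0.29 (0.00612). Of these, Pxmp2 and Mpv17 kept an adjusted p under 0.05 in each of the 21 fits with a mouse left out, whereas Phyh lost it in 16 fits (up to 0.0973) and Ephx2 in 3 (up to 0.0602). Of 15 peroxins other than Pex11a, 0 were called with EMPA by edgeR (2 under an unadjusted p of 0.05, and 0 by DESeq2 or limma), and 2 of 15 were called in R403Q mice, both lower, a share near the 10.9% of all genes called there. Pex6 was one of them at -0.20 (adjusted p = 0.0412). With library size alone 0 of 15 peroxins were called in R403Q mice. The count was also 0 without WT-CD replicate 1, 2, 3 or 4, WT-EMPA replicate 1 or 5, R403Q-CD replicate 4, 5 or 6 or R403Q-EMPA replicate 1 or 2. Catalase (Cat), which removes the hydrogen peroxide made in the organelle, had log2 differences with EMPA of 0.33 in wild-type mice (adjusted p = 0.225) and 0.0049 in R403Q mice (adjusted p = 0.988). Its mean ± SD was 271.9 ± 26.18 CPM in WT-CD and 328.7 ± 46.57 in R403Q-CD. On EMPA it was 341.8 ± 31.55 CPM in WT-EMPA and 329.8 ± 12.26 in R403Q-EMPA.

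Genes of mitochondrial oxidation and other targets of PPAR alpha were measured in the same mice. The list of 18 mitochondrial enzymes had 0 genes called in any comparison of 2 groups (edgeR, DESeq2 and limma), and its fitted differences were below 0 for 18 of 18 in R403Q-CD against WT-CD (median -0.22 on the log2 scale, 3 under an unadjusted p of 0.05). With EMPA they were above 0 for 18 of 18 in R403Q mice (median 0.24, 6 under an unadjusted p of 0.05) and 16 of 18 in wild-type mice (median 0.16, 1 under that p). Averaged over diets, Cpt2, which passes fatty acids into the mitochondrial matrix, was lower in R403Q mice at -0.27 (edgeR adjusted p = 0.0478), a call lost in 15 of 21 fits with a mouse left out (adjusted p up to 0.0922). Of 14 tested PPAR alpha targets outside the peroxisome, 11 were higher with EMPA at an unadjusted p under 0.05 in R403Q mice (median 0.37) and 11 in wild-type mice (median 0.47). None had an edgeR adjusted p under 0.05 in a comparison of 2 groups, while DESeq2 called 3 in R403Q mice and 5 in wild-type mice. The members' medians of 0.09 and 0.07 were smaller than those of either list. Averaged over genotypes, 9 of 14 targets rose with EMPA, among them Angptl4, an inhibitor of lipoprotein lipase, by 1.57 (adjusted p = 0.0053), Acot1 by 1.48 (0.00466) and Pdk4, a kinase that restrains pyruvate dehydrogenase, by 1.15 (0.0253). The count was 6 of 14 with cage as a random effect, where Pdk4 was at 0.055, and with a mouse left out it was lowest at 5, without R403Q-EMPA replicate 4. It was 6 without R403Q-EMPA replicate 3, WT-CD replicate 5 or WT-EMPA replicate 1 or 5. The receptor itself, Ppara, differed by 0.19 with EMPA (edgeR adjusted p = 0.362) and was lower in R403Q mice at -0.39 (adjusted p = 0.0348), a call lost in 9 of 21 fits with a mouse left out (adjusted p up to 0.0772).

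**Figure D5:**
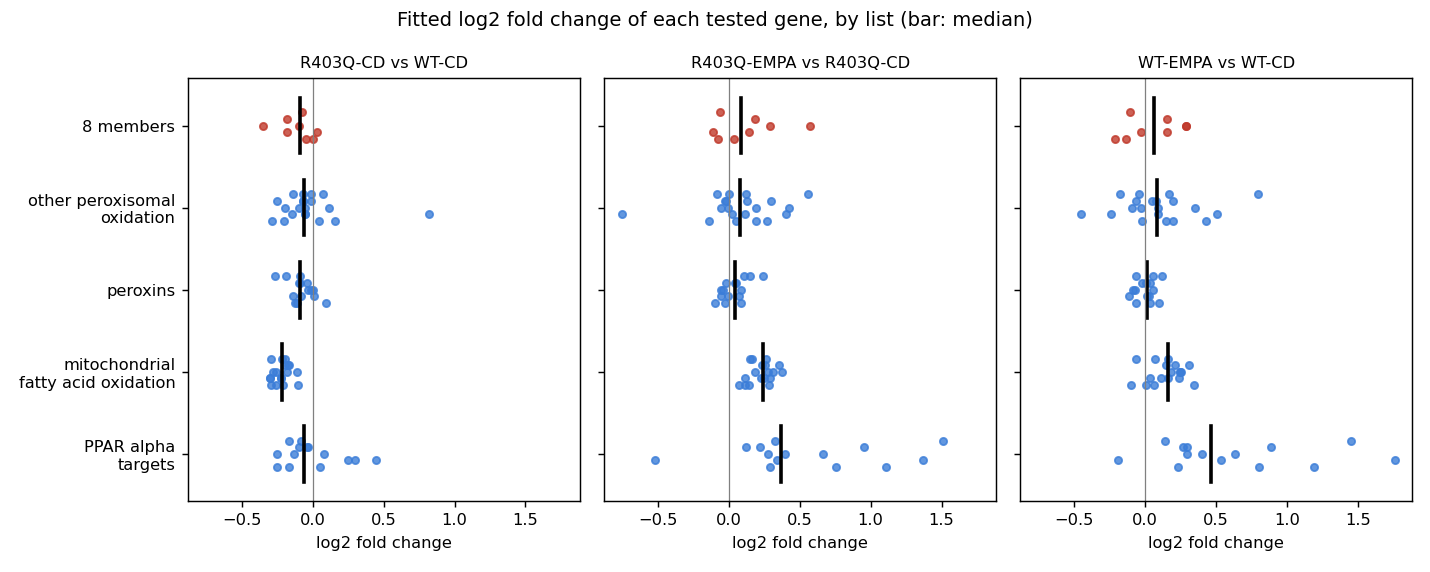
Fitted log2 fold change (x axis) of each tested gene in 5 lists, in the comparisons named above the panels. Points are genes, with the 8 members in red, and the black bar is the median of the list. The members' median lies at -0.09, 0.09 and 0.07 from left to right, whereas the PPAR alpha targets reach 0.37 and 0.47 with EMPA and all 18 mitochondrial genes lie above 0 in R403Q mice on EMPA.

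Other features of the samples moved with the groups. Among 14 clock genes, 8 were lower and 3 higher with EMPA at an unadjusted p under 0.05 in each genotype, and Arntl (1.70 on the log2 scale, edgeR adjusted p = 0.0244), Dbp (-1.02, 0.0289) and Ciart (-1.43, 0.00698) were among the 7 called when averaged over genotypes. With cage as a random effect 2 were called (Arntl at 0.129), and with a mouse left out the count ran from 1, without WT-CD replicate 5 or R403Q-EMPA replicate 3, to 11, without R403Q-CD replicate 3. The part of these genes in the values of the members was not tested. The summed level of 5 erythroid markers was 706 to 1280 CPM in WT-CD, 877 to 1720 in R403Q-CD, 1240 to 2000 in WT-EMPA and 1210 to 2660 CPM in R403Q-EMPA, with all 5 above 0 with EMPA in both genotypes. At an unadjusted p under 0.05, 5 of 5 were higher in R403Q mice and 4 of 5 in wild-type mice, and averaged over genotypes 4 of 5 rose (Alas2, Hbb-bs, Hbb-bt and Hba-a1, log2 differences of 0.50 to 0.73, edgeR adjusted p-values of 0.012 to 0.0463). With cage as a random effect Alas2 and Hbb-bt were still called, at 0.04 and 0.0484, and Hbb-bs and Hba-a1 were not, at 0.0632 and 0.128. Haemoglobin genes have near copies that share reads, and the part of erythroid RNA in the diet differences was not tested. Markers of atrial myocytes were lower with EMPA in R403Q mice, with 4 of 4 under an unadjusted p of 0.05 and a median of -3.21 on the log2 scale, against 0 of 4 and -1.41 in wild-type mice. Their summed level was 246 to 724 CPM in WT-CD, 934 to 11600 in R403Q-CD (up to 3850 without replicate 2), 438 to 749 in WT-EMPA and 432 to 1100 in R403Q-EMPA. Smooth muscle markers had 2 of 4 lower at that p in R403Q mice (median -1.01, summed level 300 to 855 CPM in R403Q-CD and 190 to 423 in R403Q-EMPA) and 0 of 4 in wild-type mice (median -0.58, 203 to 644 CPM in WT-CD and 230 to 387 in WT-EMPA). Averaged over genotypes, 3 of 4 atrial, 3 of 4 smooth muscle and 3 of 6 fibroblast markers were lower with EMPA at an unadjusted p under 0.05, none with an edgeR adjusted p under 0.05. However, 1 of the 6 fibroblast markers was higher at that p. The median of the summed fibroblast markers was 1760 CPM in R403Q-EMPA against 1630 in R403Q-CD, and 1460 in WT-EMPA against 1170 in WT-CD. The part of these cells in the diet differences of the members was not tested. In R403Q-CD the macrophage markers Adgre1 (0.68, edgeR adjusted p = 0.0351) and Csf1r (0.46, 0.0254) rose, with a summed level over 5 genes of 191 to 261 CPM against 154 to 197 CPM in WT-CD, and each call was lost in 5 of 21 fits with a mouse left out. Averaged over diets 4 of 5 macrophage markers were called higher in R403Q mice (adjusted p-values of 0.00145 to 0.0105). Of the atrial markers, 4 of 4 were above 0 in R403Q-CD against WT-CD (median 1.05), and Nppa rose by 2.73 (edgeR adjusted p = 0.0248), or by 1.80 without R403Q-CD replicate 2 (0.0158), a call lost in 5 of 21 fits with a mouse left out. Averaged over diets 1 of 4 was called, Nppa, at 1.58 (adjusted p = 0.02), with a median of -0.02 over the 4 genes. Fibroblast markers summed to 1500 to 5500 CPM (median 1630) in R403Q-CD, where the highest value is that of replicate 2 and the next is 2760, and to 1110 to 1860 CPM (median 1170) in WT-CD. All 6 genes were above 0 (median 1.19 on the log2 scale), 5 of them higher at an unadjusted p under 0.05 and none with an edgeR adjusted p under 0.05. Averaged over diets 6 of 6 were under the unadjusted p and 1 was called, Dcn, at 0.40 (adjusted p = 0.0241). Cardiomyocyte markers summed to 62300 to 98900 CPM (81300 to 98900 without replicate 2) in R403Q-CD and 97000 to 105000 CPM in WT-CD, with 6 of 8 below 0 (median -0.125 on the log2 scale, 2 lower at an unadjusted p under 0.05, none with an edgeR adjusted p under 0.05). Averaged over diets 1 of the 8 was called, Myh6, at -0.385 (adjusted p = 0.0419), a call lost in 14 of 21 fits with a mouse left out. Of 5 endothelial markers, 1 was called higher in R403Q mice averaged over diets, Emcn at 0.38 (edgeR adjusted p = 0.0269), a call lost in 3 of 21 fits. With EMPA averaged over genotypes 1 was called, Kdr at 0.35 (0.0217, or 0.0666 with cage as a random effect). The part of any of these cell types in the genotype or diet differences was not tested. Liver and brown fat are rich in these peroxisomal enzymes. Of the liver markers, Alb had at most 0.13 CPM in any mouse and Ttr, the highest of 5, at most 1.35 CPM, with a log2 difference of 1.24 in R403Q-CD against WT-CD (edgeR adjusted p = 0.135). Of the markers of brown fat, Ucp1 had at most 0.104 CPM and Elovl3 at most 0.133 CPM, whereas Cidea (17.4 to 35 CPM), Cox7a1 (243 to 689 CPM) and Ppargc1a (85.2 to 273 CPM), which heart muscle also expresses, were measured in every mouse.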

How the data were processed

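The authors made the deposited counts from poly(A) read pairs: alignment to mm10 with STAR 2.6.0c, quality checks with FastQC 0.11.7, and counting of uniquely aligned pairs, given as on the same strand, per Ensembl gene with featureCounts (Subread 1.6.2), leaving out mitochondrial genes, with versions taken from the submitters' processing notes. A second deposited table holds log2 values, which the authors obtained by the variance-stabilizing transformation of DESeq2 1.32.0. Totals were 23491535 to 43539684 counts per mouse, and each mouse gave 1 sample.

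Here counts of all 21 mice were fitted in 1 model with 4 group means in R 4.3.3 with edgeR 4.0.16 (filterByExpr with a minimum count of 10, TMM, quasi-likelihood F test, Benjamini-Hochberg adjustment over 17309 genes, called at an adjusted p under 0.05). P-values measure the spread between mice. RPKM used GENCODE exon lengths on GRCm38, which named 55104 of the genes. The limit of 3 counts covers counting error only. Alternatives were DESeq2 1.42.0, limma 3.58.1 on the log2 values, cage as a random effect or block, other scaling, no filter, fewer groups and leaving out each mouse. Members, gene lists and tests were chosen with earlier results of these data known. Named genes were all members, called genes of the lists, and Acaa1b, Ppara and Cat, except a few that are not reported here. The fit was tested on simulated data.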

Additional observations from a re-analysis of the deposited data

Results flagged for a closer look

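Of 32 checks of a member in a group of mice, 2 found a mouse far from the rest of its group, where chance flags about 1 in 20. Acaa1a stood at 74.6 CPM in WT-CD replicate 3, with the next highest WT-CD mouse at 67.6 CPM. Crot stood at 55 CPM in WT-EMPA replicate 3, with the next highest WT-EMPA mouse at 49.2 CPM.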

How the results depend on the processing

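The count of 0 of 8 members called held in the comparisons between groups and in the interaction under DESeq2, library size alone, no filter on low counts, limma on the deposited log2 values, cage as a random effect or as a block, fewer groups in the fit and each mouse left out. In the averages added after the data were seen, 1 member was called by DESeq2 with EMPA and 1 with R403Q, 1 with R403Q when cage was a random effect, and 0 to 1 and 0 to 2 when a mouse was left out. Cage as a block could be fitted within 1 diet only, since no cage held both diets. On EMPA, WT-EMPA replicates 1, 2 and 3 came from a cage without R403Q mice. In that block fit they therefore added nothing to the genotype difference. The labels gave no replicate numbers shared between groups, so no pairing of mice was fitted.

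The number of all genes called moved more. For R403Q-CD against WT-CD it was 250, against 970 with DESeq2, 475 with cage as a random effect, 28 with only the 2 groups, 98 without WT-EMPA, 19 with cage as a block and 31 (without WT-CD replicate 3) to 1045 (without R403Q-CD replicate 3) with a mouse left out. For EMPA in R403Q mice it was 2, against 157 with DESeq2, 5 with library size alone, 0 with only the 2 groups, 0 without WT-EMPA and 0 (without R403Q-CD replicate 5, among others) to 12 (without R403Q-CD replicate 1) with a mouse left out. In wild-type mice it was 5, against 112 with DESeq2, 0 with library size alone, 1 with cage as a random effect and 0 (without WT-CD replicate 1, among others) to 12 (without R403Q-CD replicate 2) with a mouse left out. Between genotypes on EMPA it was 10, against 299 with DESeq2, 123 with only the 2 groups, 6 with cage as a block and 1 (without R403Q-EMPA replicate 1) to 201 (without R403Q-CD replicate 2) with a mouse left out. Averaged over genotypes EMPA gave 504 genes, against 983 with DESeq2, 314 without the filter, 113 with cage as a random effect and 122 (without R403Q-EMPA replicate 3) to 929 (without R403Q-CD replicate 3) with a mouse left out. R403Q averaged over diets gave 1883, against 961 (without R403Q-EMPA replicate 1) to 2764 (without R403Q-CD replicate 3). The cause was not tested.

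Sign changes were limited to members whose differences lay near 0. With library size alone, Abcd2 stood at 0.015 in R403Q-CD against WT-CD, Acaa1a at 0.0203 between genotypes on EMPA, Pex11a at -0.00361 in the interaction, and Acaa1a at 0.00436 and Crot at 0.0453 with R403Q averaged over diets. Acot8 was -0.00302 in R403Q-CD against WT-CD without the filter, Pex11a was -0.00337 in the interaction with DESeq2, and Ehhadh was 0.0326 between genotypes on EMPA with cage as a block. With a mouse left out, Acot8 ran from -0.0478 to 0.0483 in R403Q-CD against WT-CD, Abcd2 from -0.155 to 0.0241 with EMPA in R403Q mice and Ehhadh from -0.163 to 0.0702 between genotypes on EMPA. In the interaction Pex11a ran from -0.0687 to 0.086, Abcd3 from -0.0823 to 0.0314 and Hsd17b4 from -0.021 to 0.0817. With R403Q averaged over diets, Abcd2 ran from -0.0263 to 0.0616 and Crot from -0.053 to 0.0086.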
